A study of Mus musculus with 4 samples.

Results

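Cathepsin E (gene Ctse) and calpastatin (gene Cast) were followed in granulocyte-monocyte progenitors, marrow precursors of neutrophils and of monocytes, of wild-type and MST1-deficient mice. Poly(A)-selected RNA was sequenced from 2 libraries a group, and the cells of 10 mice were pooled for each, per the labels. The sorted cells stood in serum-containing medium and received no drug. The strain, age, sex, knockout allele and any Cre driver are not given in the sources used here. MST1 was taken to be the Hippo pathway kinase that Stk4 encodes. The labels do not name the gene, and 0 unannotated transcripts of Stk4 were listed, so the labels alone define the groups.

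The values cover transcripts that the authors' identifiers place outside the reference annotation, called unannotated transcripts here. Members were the listed transcripts with the NCBI gene number of Ctse (13034) or Cast (12380), 14 of 8219 transcripts in all: 1 of Ctse and 13 of Cast. Annotated transcripts of both genes were not analysed here, so a gene's level below is that of its unannotated transcripts alone. Ctse was chosen by the difference of its FPKM sum between the groups, and Cast was chosen by the balance of FPKM among its transcripts. Both are therefore described without a test. In bulk RNA, fewer cells that hold a transcript and less of it per cell cannot be told apart.

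Cathepsin E is an aspartic protease of the endosomal compartment, related to cathepsin D and to pepsin. It is found in immune cells, in gastric epithelium and on red cell membranes, and takes part in antigen processing. Calpastatin is the endogenous inhibitor of the calcium-dependent cysteine proteases calpain-1 and calpain-2. Its gene has several start sites and alternatively used exons, which give proteins with different amino-terminal parts around repeated inhibitory domains.

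Some of the Cast transcripts differed from each other in length by small steps. Annotated exons of some of these sizes are shown here because the results turn on 2 forms. These have 8360 and 8363 bases and so are 3 bases apart. In GENCODE M21 (GRCm38, the build that mm10 names), Cast lies on the minus strand of chromosome 13, from 74692366 to 74808874 in RefSeq. The annotation holds an exon of 105 bases and a version of it of 102 bases. They share the end at 74704101 and begin at 74704205 and 74704202. The longer is used in 5 and the shorter in 2 of the 7 protein-coding transcripts that hold either. The junctions, with 15 bases of the exon before, read as follows in the coding strand, with the 3 extra bases in capitals.
Cast junction with the 3 bases: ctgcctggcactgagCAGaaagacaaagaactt
Cast junction without the 3 bases: ctgcctggcactgagaaagacaaagaactt
A second step of 57 bases separates the forms of 8363 and 8420 bases. An exon of that size (chr13:74748805-74748861, minus strand) is used in 2 of the 6 coding transcripts that span it and is coding in both.
Cast exon of 57 bases: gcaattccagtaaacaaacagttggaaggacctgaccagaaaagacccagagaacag
A step of 63 bases separates the forms of 8180 and 8243 bases. The exon of that size (chr13:74798656-74798718, minus strand) is present in 3 of the 3 coding transcripts that span it.
Cast exon of 63 bases: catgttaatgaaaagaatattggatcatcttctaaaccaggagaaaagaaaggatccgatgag
The deposited lists give lengths and no exons or positions. Equal sizes therefore do not place a step in the gene, and these sequences come from the annotated transcripts. The step of 60 bases between the forms of 8360 and 8420 bases equals an exon of 60 bases that is present in 6 of the 6 coding transcripts spanning it, and it also equals the steps of 57 and 3 bases together.

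The length window from 8000 to 8500 bases held 9 of the 13 Cast transcripts. Of the 36 pairs among these 9, 16 differed by a multiple of 3 and 6 by the length of an annotated internal coding-transcript exon. There are 21 distinct lengths of such exons, from 36 to 114 bases, and 20 of them are multiples of 3. The 36 pairs share 9 lengths and no expected share was worked out, so nothing is read from these counts. The other Cast transcripts had 4790, 5705, 9711 and 15253 bases. The longest of 13 annotated Cast transcripts has 5141 bases, and 12 of the 13 unannotated ones were longer. The Ctse transcript had 3134 bases against 2126 for the longest of 3 annotated ones, which has 10 exons, so it was 1008 bases longer.

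**Figure D1:**
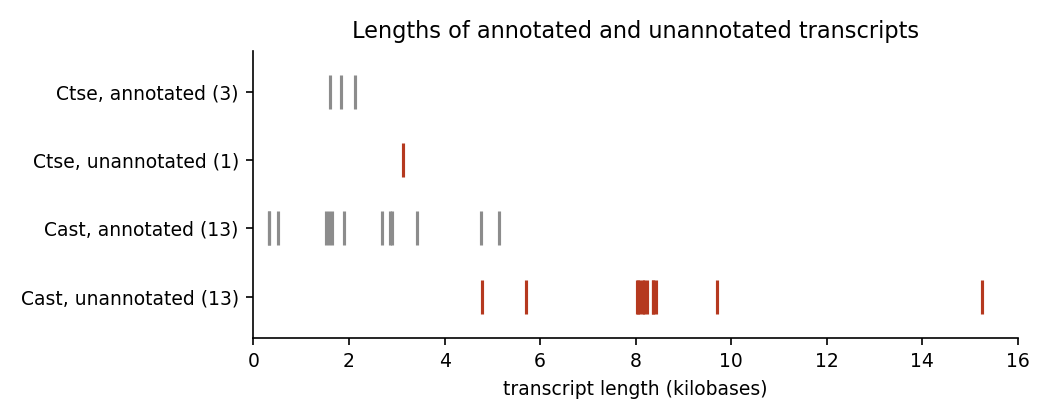
Each tick is 1 transcript at its length in kilobases (horizontal axis), for transcripts of GENCODE M21 (grey) and for the unannotated transcripts of the deposited lists (red). The Ctse transcript of 3134 bases lies beyond the longest annotated one of 2126 bases, and 12 of 13 Cast transcripts lie beyond 5141 bases.

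Each library held between 928977 and 1079382 estimated counts over 6517 to 6774 listed transcripts. Marker lists of other cell types were only partly represented among unannotated transcripts. Of 13 myeloid progenitor genes 3 were listed, with summed levels of 85.0 and 60.1 FPKM in wild type versus 78.2 and 98.2 FPKM in MST1-deficient libraries. Mpo, Elane, Prtn3 and Cd34 had no listed transcript, so the labelled cell type could not be checked against its defining markers.

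Cathepsin E had the higher level in MST1-deficient cells. The gene lies on chromosome 1, from 131638314 to 131675507 (RefSeq, GRCm38.p6). Its 1 unannotated transcript, novel_T000343, had 53.4 and 39.4 FPKM in wild-type replicates 1 and 2 and 230.8 and 211.0 FPKM in MST1-deficient replicates 1 and 2. FPKM is the estimated count scaled to transcript length and library size. The groups did not overlap, and the lower MST1-deficient library was 3.95 times the higher wild-type one. The same transcript had 1278 and 874 estimated counts in wild type against 4780 and 5407 in MST1-deficient libraries. Group means were 46.4 ± 9.96 FPKM (SD, n = 2) and 220.9 ± 14.0 FPKM, a 4.76-fold difference. On the scale of log2(FPKM + 0.5) the difference was 2.25, the 17th highest of 3221 gene sums tested. Both MST1-deficient libraries lay above both wild-type ones in 454 gene sums, Ctse among them, or 14.1% of those tested. This contrast chose Ctse, so nothing is read from that share.

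The replicates of Ctse lay close together relative to this difference. The ratio of the higher to the lower library was 1.36 in wild type versus 1.09 in MST1-deficient cells. Over tested transcripts above 0 in both libraries, the median ratio was 1.4 in wild type versus 1.55 in MST1-deficient cells. Since the gene had a single unannotated transcript, its share of the gene sum was 100% in each library. Among the gene sums above 0, Ctse ranked 93rd of 4430 and 135th of 4319 by FPKM in wild type. In MST1-deficient libraries it ranked 17th of 4438 and 19th of 4311.

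**Figure D2:**
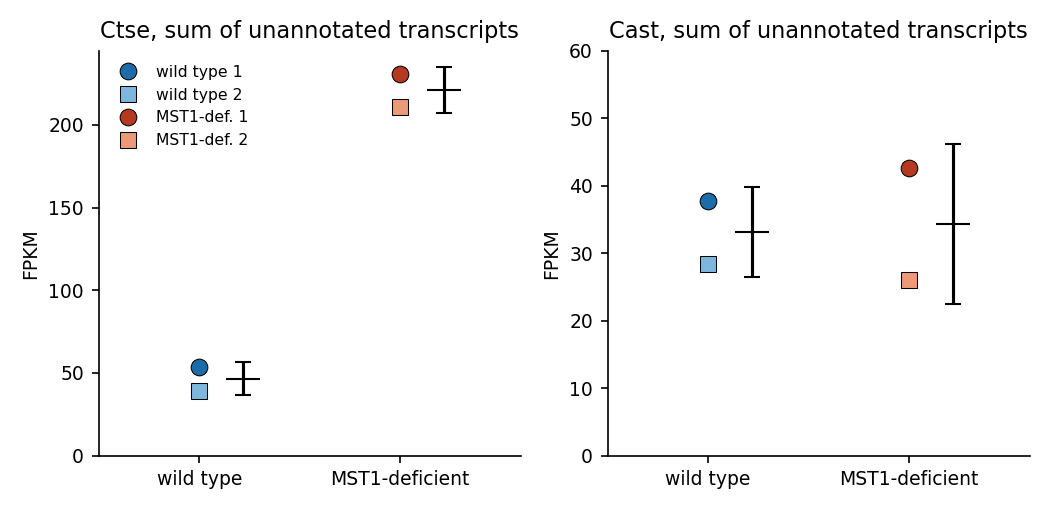
Points give the summed FPKM (vertical axis) of the unannotated transcripts of Ctse (left) and Cast (right) in each library, and the bars give the mean and SD of each group (n = 2). Ctse libraries lie at 39.4 and 53.4 FPKM in wild type and at 211.0 and 230.8 FPKM in MST1-deficient cells, while the Cast groups overlap.

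Genes next to Ctse on the chromosome had little or no listed signal. Of the 3 nearest genes on each side, Rab7b, which encodes a small GTPase of the late endosome, was listed, at 0 FPKM in 3 libraries and 0.07 FPKM in MST1-deficient replicate 2. Avpr1b, Fam72a, Gm8532, Gm30104 and Slc26a9 had no listed transcript. By Euclidean distance over the 4 libraries (log2(FPKM + 0.5) with each gene's mean taken out), the gene sums most like Ctse were Mettl2 (distance 0.35), Rfng (0.45) and Galnt11 (0.45). Mettl2 had 2.33 and 2.04 FPKM in the MST1-deficient libraries, Rfng had 2.12 and 1.30 FPKM, and both were at 0 in wild type. These 2 passed the filter through the MST1-deficient libraries alone, and their distances depend on the 0.5 added before logs. Likeness to Ctse repeats the contrast that chose it, so nothing is read from it. Galnt11, which starts O-linked sugar chains, had 6.16 and 4.11 FPKM against 24.9 and 34.3 FPKM.

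Red cells also hold cathepsin E. Their marker genes had lower summed levels in the MST1-deficient libraries. Of the 3 tested, 1 had groups apart, with the MST1-deficient libraries below, and 2 overlapped. Over all gene sums, 18.8% lay apart in that direction. Of 15 erythroid genes 6 were listed, and their summed level was 25.55 and 31.4 FPKM in wild type versus 19.4 and 7.84 FPKM in MST1-deficient libraries. Gata1, Klf1, Alas2 and Slc4a1 had no listed transcript. On the log2(FPKM + 0.5) scale the differences of the 3 tested erythroid genes were -1.51 (Sptb), -1.18 (Ank1) and -0.07 (Tal1). Their median is thus that of Ank1, whose groups overlapped, and the median over all gene sums was -0.06. With edgeR's quasi-likelihood test 0 of the 3 passed at an adjusted p under 0.05, and on counts Tal1 had a log2 fold change of 0.07. Of 10 macrophage and dendritic cell genes 3 were listed, with sums of 8.02 and 3.98 FPKM in wild type versus 2.92 and 2.91 FPKM in MST1-deficient libraries. Nearly all of this was Itgax, an integrin chain of dendritic cells, with 7.62 and 3.96 FPKM versus 2.77 and 2.87 FPKM. It was the 1 gene tested, with an adjusted p of 0.929 by edgeR. Adgre1, Cd68 and Mrc1 had no listed transcript. The eosinophil, basophil and mast cell list (6 of 11 listed) summed to 151.9 and 191.5 FPKM in wild type versus 113.9 and 126.9 FPKM in MST1-deficient libraries. Each of its 4 tested genes (Prg3, Ms4a2, Gata2 and Alox15) had the MST1-deficient libraries below wild type, against 18.8% of all gene sums. In edgeR's test 0 of the 4 passed (lowest adjusted p 0.918). The T and NK cell list (3 of 9 listed) summed to 25.1 and 27.2 FPKM in wild type versus 14.1 and 12.0 FPKM. Its 2 tested members, both natural killer cell receptor genes, went opposite ways. Klrc1 had 19.7 and 22.3 FPKM in wild type versus 3.98 and 4.34 FPKM, with an adjusted p of 0.274 by edgeR's quasi-likelihood test and 8.55e-05 by DESeq2. Ncr1 had 5.41 and 4.93 FPKM in wild type versus 9.86 and 7.63 FPKM, with an adjusted p of 0.77 by edgeR and 0.506 by DESeq2. The sums of the B lineage, late neutrophil and megakaryocyte lists overlapped between the groups. The B lineage list (4 of 8) had 22.4 and 1.72 FPKM in wild-type replicates 1 and 2 versus 9.46 and 8.45 FPKM, so the wild-type libraries differed most from each other. Late neutrophil genes (3 of 10) had 103.9 and 49.1 FPKM versus 40.1 and 54.8 FPKM, and megakaryocyte genes (4 of 7) had 38.2 and 46.5 FPKM versus 46.6 and 35.3 FPKM. The part of such cells in the Ctse difference, or in the Cast forms below, was not tested.

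The other proteases related to cathepsin E gave no call. Of 21 aspartic protease and cathepsin genes, 4 had a listed transcript and 3 were tested. In edgeR's quasi-likelihood test 0 of the 3 passed at an adjusted p under 0.05 (lowest 0.992), and 0 of 3 had an unadjusted p under 0.05. Over all 3221 gene sums the shares were 0% and 5.65%. Ctsd, the lysosomal aspartic protease cathepsin D, had 2.63 and 2.83 FPKM in wild type versus 3.28 and 1.32 FPKM in MST1-deficient libraries. Ctsw, a cysteine cathepsin of cytotoxic lymphocytes, had 2.93 and 2.13 FPKM against 2.44 and 2.34 FPKM. Ctsz, the cysteine protease cathepsin Z, had 1.71 and 1.25 FPKM against 2.04 and 0.24 FPKM. In each of the 3 tested genes the groups overlapped. The cathepsins B, L, S, G and C (Ctsb, Ctsl, Ctss, Ctsg and Ctsc) had no listed transcript.

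The protease inhibitor list gave 2 tested genes of 12, both with the MST1-deficient libraries below wild type. Groups lay apart in this direction in 18.8% of all gene sums. Serpinb6a, an intracellular serpin, had 9.79 and 8.88 FPKM in wild type versus 7.86 and 8.66 FPKM in MST1-deficient libraries. Serpina3g, a serpin known to inhibit cathepsin B, had 8.88 and 7.44 FPKM against 6.84 and 6.11 FPKM. Neither passed (lowest adjusted p 0.992, edgeR), and on counts the log2 fold change of Serpinb6a was 0.02. Both have close relatives in their gene clusters, so the split of reads among copies is uncertain.

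Lysosomal genes were present at very different levels. Of 24 genes in the list, 6 were listed and 5 tested. Over all gene sums, 0% passed in edgeR and 5.65% had an unadjusted p under 0.05. Of the 5 tested here, 0 passed and 1 had an unadjusted p under 0.05. That gene was Tfe3, a transcription factor of lysosome genes, with 17.6 and 10.6 FPKM in wild type versus 6.76 and 4.63 FPKM in MST1-deficient libraries. Its log2 fold change on counts was -1.28 (unadjusted p = 0.0136, adjusted p = 0.665, edgeR). Npc2, a lysosomal cholesterol carrier, had 346.7 and 367.8 FPKM in wild type against 388.3 and 376.8 FPKM. Psap, the precursor of the saposins, had 37.9 and 19.2 FPKM against 14.3 and 32.8 FPKM, and its groups overlapped.

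For antigen processing, 3 of 13 genes were listed and tested, and 0 passed (lowest adjusted p 0.992, edgeR). H2-DMb2, a chain of the peptide exchanger of MHC class II, had 4.21 and 2.28 FPKM in wild type versus 4.31 and 4.09 FPKM in MST1-deficient libraries. Tap1, a peptide transporter subunit, had 1.13 and 1.34 FPKM against 1.17 and 0.75 FPKM. The invariant chain gene Cd74 and the class II genes H2-Aa and H2-Ab1 had no listed transcript.

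The summed level of the 13 Cast transcripts differed less between genotypes than within them. It was 37.8 and 28.4 FPKM in wild-type replicates 1 and 2 and 42.7 and 26.0 FPKM in MST1-deficient replicates 1 and 2. The highest and the lowest of the 4 libraries were both MST1-deficient, so the groups overlapped. Group means were 33.1 ± 6.66 FPKM (SD, n = 2) and 34.3 ± 11.8 FPKM, a difference of 0.02 on the log2(FPKM + 0.5) scale. With each library left out in turn this difference ranged from -0.33 to 0.38. The estimated counts of the gene were 2450 and 1687 in wild type versus 2359 and 1813 in MST1-deficient libraries.

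The make-up of that sum varied more than its size. Wild-type replicates 1 and 2 listed 11 and 10 of the 13 transcripts and MST1-deficient replicates 9 and 11. Across the 4 libraries, 6 transcripts were listed in each of them, 1 was at 0 in both wild-type libraries and 1 was at 0 in both MST1-deficient ones. The most abundant form had 8180 bases in wild-type replicate 1, 8094 bases in wild-type replicate 2, 8363 bases in MST1-deficient replicate 1 and 8180 bases in MST1-deficient replicate 2. No form led in both libraries of a genotype.

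The 8363-base form, novel_T002515, was listed in MST1-deficient cells. It reached 14.7 and 2.38 FPKM in MST1-deficient replicates 1 and 2 and was at 0 in both wild-type ones. Its estimated counts there were 837 and 167, against 0 and 0. Against a floor of 3 counts per wild-type library, scaled by TMM-adjusted library sizes, the mean of the MST1-deficient libraries was at least 173-fold higher. Taken alone, replicate 1 was at least 288-fold and replicate 2 at least 57.7-fold higher. These bounds, and the shares that follow, take the deposited split of reads between forms as given. Combined with the near-identical 8360-base form, the means were 5.25 ± 0.467 FPKM (SD, n = 2) in wild type versus 14.2 ± 9.79 FPKM in MST1-deficient cells. The 8363-base form made up 34.5% and 9.16% of the Cast FPKM in the MST1-deficient libraries (21.8 ± 17.9%, SD, n = 2). As a share of estimated counts it was 35.5% (95% Wilson interval 33.6 to 37.4%) in replicate 1 and 9.20% (7.96 to 10.6%) in replicate 2. By the floor of 3 counts, the 0 counts in wild type allow a share of up to 0.122% and 0.178% of the gene's counts. The upper Wilson limits there were 0.16% and 0.23%, and both cover counting error only.

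The 2 MST1-deficient libraries were far apart for this form. Their FPKM differed by 6.18-fold, and 4.47% of the 4181 tested transcripts above 0 in both libraries had a ratio as large. Without replicate 1 the mean share of the form in MST1-deficient cells would be 9.16% and without replicate 2 it would be 34.5%. Of all 4661 transcripts tested, 36 (0.772%) were at 0 in both wild-type and above 0 in both MST1-deficient libraries. That contrast chose the gene, so nothing is read from this share.

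The 8360-base form, 3 bases shorter, was steady. This transcript, novel_T002518, had 4.92 and 5.58 FPKM in wild type versus 6.44 and 4.94 FPKM in MST1-deficient libraries. It had 323, 340, 366 and 347 estimated counts in the same order, and its share of the gene sum was 13.0%, 19.7%, 15.1% and 19.0%. The deposited estimated counts divide shared reads among forms, so the split between forms this alike rests on the authors' estimation. Added together, the forms of 8360 and 8363 bases had 4.92 and 5.58 FPKM in wild type against 21.2 and 7.32 FPKM. The groups did not overlap in the combined value, a combination chosen after the values were seen. In wild type the combined value is that of the 8360-base form alone, so nothing is read from this separation.

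The 8094-base form was lower in the MST1-deficient libraries. This transcript, novel_T002506, had 11.9 and 8.15 FPKM in wild type versus 3.83 and 5.55 FPKM in MST1-deficient libraries, and the groups did not overlap. Its share of the gene sum was 31.5% and 28.7% in wild type versus 8.98% and 21.4% in MST1-deficient libraries. The mean FPKM was 10.0 ± 2.67 (SD, n = 2) against 4.69 ± 1.22, a ratio of 2.14 between wild type and MST1-deficient cells. The lowest share, in MST1-deficient replicate 1, was in the library with the highest share of the 8363-base form. Shares of the same sum trade off against each other, and this balance chose Cast, so nothing is read from that.

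The 8180-base form differed between the wild-type libraries and hardly between the MST1-deficient ones. This transcript, novel_T002514, had 12.5 and 4.22 FPKM in wild type, a ratio of 2.95, and 6.60 and 6.25 FPKM in MST1-deficient libraries, a ratio of 1.06. The MST1-deficient values lay between the wild-type ones. Its share of the sum was 32.9% and 14.9% in wild type versus 15.5% and 24.1% in MST1-deficient libraries.

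**Figure D3:**
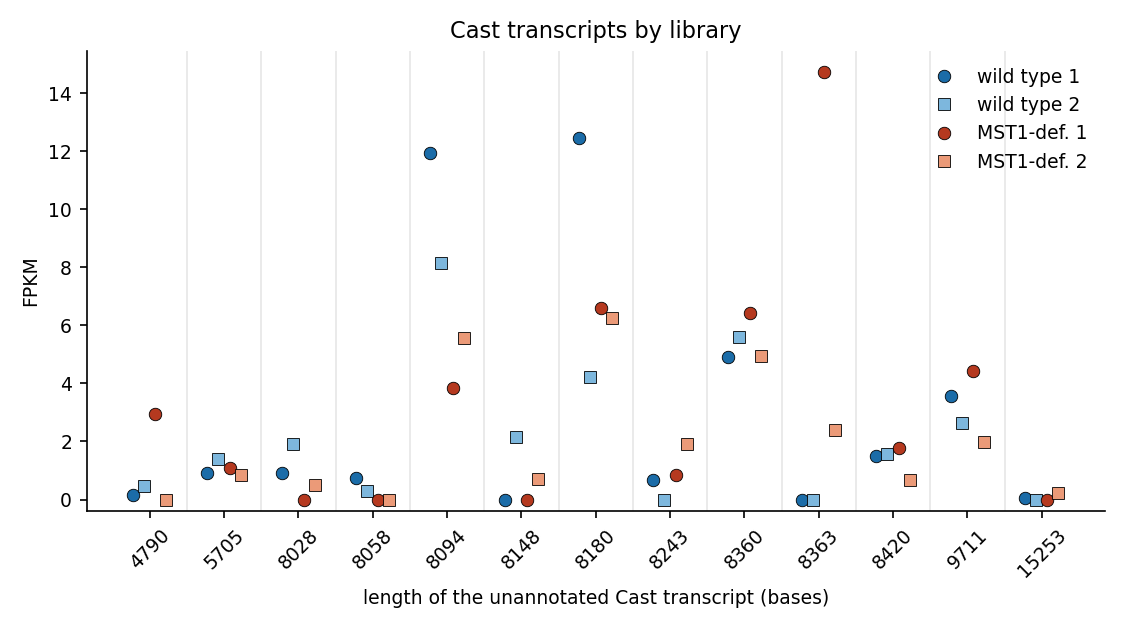
Points give the FPKM (vertical axis) of each of the 13 unannotated Cast transcripts, ordered by length in bases (horizontal axis), in each of the 4 libraries. The 8363-base form is at 0 in both wild-type libraries and at 14.7 and 2.38 FPKM in the MST1-deficient ones, and the 8360-base form lies between 4.92 and 6.44 FPKM in the 4 libraries.

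Other forms had overlapping groups or were scarce. The 9711-base transcript had 3.57 and 2.62 FPKM in wild type versus 4.42 and 1.97 FPKM in MST1-deficient libraries, and made up between 7.59% and 10.4% of the sum. The 8420-base transcript had 1.49 and 1.56 FPKM against 1.78 and 0.68 FPKM. The 5705-base transcript had 0.93 and 1.41 FPKM against 1.09 and 0.83 FPKM. In these 3 forms the groups overlapped. The 4790-base transcript, the shortest, had 0.14 and 0.46 FPKM in wild type versus 2.94 and 0 FPKM in MST1-deficient libraries. The 15253-base transcript, the longest, stayed at or below 0.24 FPKM.

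The remaining forms were listed in 2 or 3 libraries each. The 8028-base transcript had 0.93 and 1.92 FPKM in wild type versus 0 and 0.51 FPKM in MST1-deficient libraries. The 8058-base transcript had 0.75 and 0.29 FPKM in wild type. Both MST1-deficient libraries were at 0, which against the floor is at least 9.99-fold lower than the wild-type mean. The bound was 14.0-fold from wild-type replicate 1 alone and 6.01-fold from replicate 2 alone. It too takes the deposited split of reads between forms as given. The 8243-base transcript had 0.66 and 0 FPKM in wild type versus 0.84 and 1.90 FPKM in MST1-deficient libraries. The 8148-base transcript appeared in the libraries numbered 2, at 2.17 FPKM in wild type versus 0.72 FPKM in MST1-deficient cells. Each of these made up at most 7.65% of the Cast sum in the 4 libraries.

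Of the 13 Cast transcripts, 2 had both MST1-deficient libraries above wild type and 3 had both below. Of the 7 that reached 1 FPKM in 2 libraries, 1 was above, 1 below and 5 overlapped. Over all 4661 transcripts tested, 13.7% lay above and 19.9% below. The form above, of 8363 bases, passed this filter through the MST1-deficient libraries alone. Cast was chosen by the balance among its forms, so nothing is read from these counts. In edgeR's quasi-likelihood test 0 of all 4661 transcripts passed at an adjusted p under 0.05, and 245 (5.26%) had an unadjusted p under 0.05. On simulated counts with the spread of these transcripts, that test recovered none of the known changes, so the lack of calls among transcripts does not show that they did not differ.

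**Figure D4:**
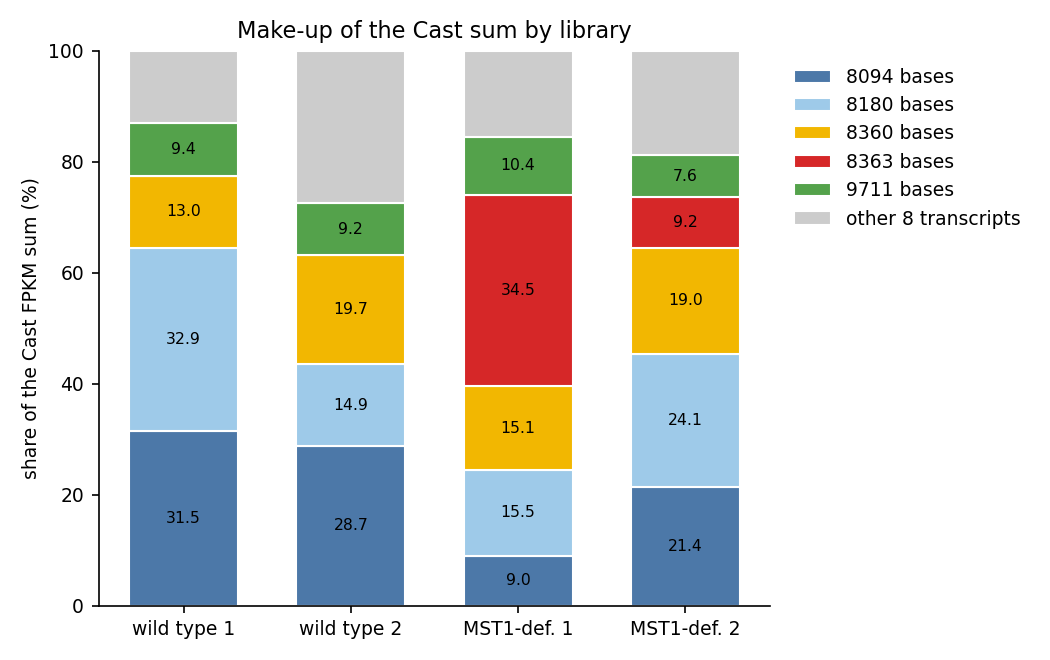
Stacked bars give the share of each Cast transcript in the Cast FPKM sum (vertical axis, percent) for the 4 libraries, with 5 forms in colour and the other 8 in grey. The 8363-base form takes 34.5% and 9.16% in the MST1-deficient libraries and none in wild type, and the 8094-base form takes 31.5% and 28.7% in wild type against 8.98% and 21.4%.

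Cast overlaps Erap1, the aminopeptidase that trims peptides for MHC class I, by 840 bases at its 3′ end. Summed unannotated transcripts of Erap1 had 6.69 and 7.40 FPKM in wild type versus 7.36 and 5.67 FPKM in MST1-deficient libraries, and the groups overlapped. The sources used here do not say whether the counting used strand, so reads in the shared stretch cannot be assigned to 1 gene. Of the other 5 nearest genes, Gm6296, a pseudogene inside Cast, had no listed transcript, nor did Hnrnpa1l2-ps, Gm30867, Gm46430 and Gm5626. The gene sums most like the Cast sum over the 4 libraries were Fbrs (distance 0.06), Nradd (0.07) and Slc16a7 (0.07), by the measure used for Ctse. Fbrs had 15.6 and 11.3 FPKM in wild type versus 16.6 and 10.3 FPKM in MST1-deficient libraries.

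The calpains, the proteases that calpastatin inhibits, were scarcely represented. Of 15 genes 4 were listed and 2 tested, and 0 passed (lowest adjusted p 0.992, edgeR). Capn15, a calpain with zinc fingers, had 10.6 and 11.0 FPKM in wild type versus 13.2 and 9.80 FPKM in MST1-deficient libraries. Capn7, a calpain without the calmodulin-like domain, had 2.68 and 2.82 FPKM against 6.21 and 2.24 FPKM. Capn2, the catalytic subunit of calpain-2, stayed at or below 0.53 FPKM, and Capn1 and the small subunit gene Capns1 had no listed transcript.

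Cytoskeletal substrates of calpain gave 3 tested genes of 11, and 0 passed (lowest adjusted p 0.945, edgeR). Sptan1, the non-erythroid spectrin alpha chain, had 22.9 and 21.9 FPKM in wild type versus 27.9 and 18.8 FPKM in MST1-deficient libraries. Ank1, the erythroid ankyrin, had 5.33 and 10.5 FPKM against 5.69 and 1.52 FPKM. Add1, an adducin that caps actin at spectrin junctions, had 0.61 and 0 FPKM against 1.46 and 1.05 FPKM. It passed the filter through the MST1-deficient libraries alone, so nothing is read from its direction.

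**Figure D5:**
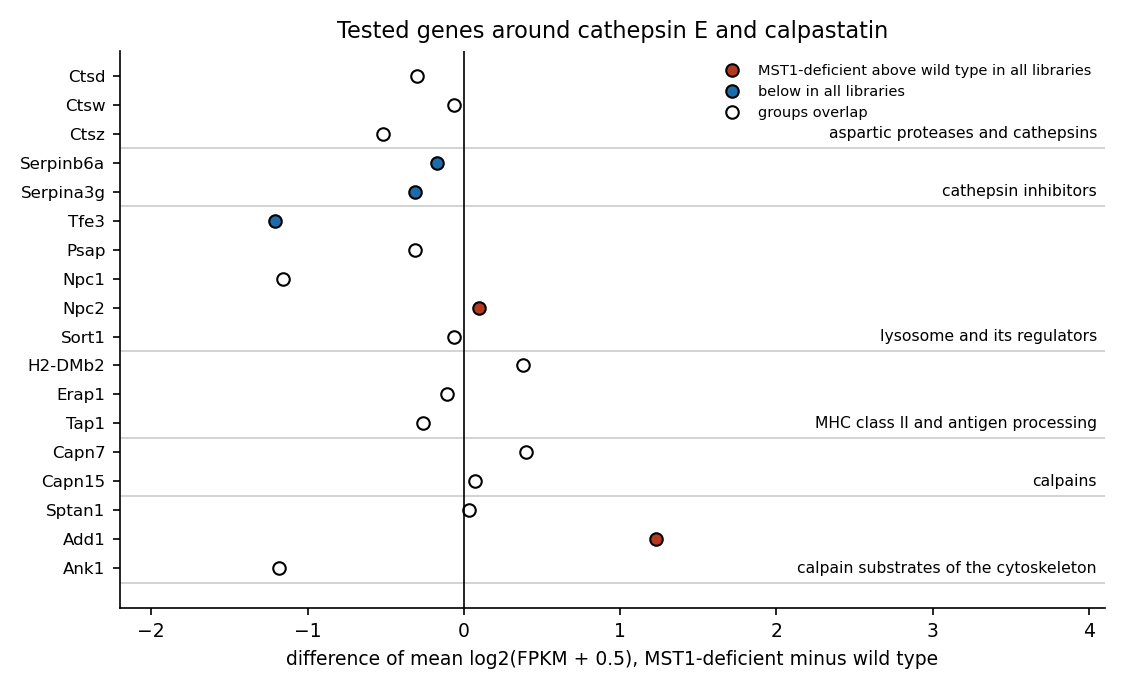
Each point is 1 of the 18 tested genes of the 6 lists around cathepsin E and calpastatin, at its difference of mean log2(FPKM + 0.5), MST1-deficient minus wild type (horizontal axis). Filled points mark genes whose groups did not overlap, red for higher (2 genes) and blue for lower (3 genes) in MST1-deficient cells. Of the red ones, Add1 passed the filter through the MST1-deficient libraries alone.

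Over these 6 lists together, 24 of 96 genes were listed and 18 tested, and 0 passed in edgeR (lowest adjusted p 0.665). At an unadjusted p under 0.05 there was 1 gene (5.56%), against 5.65% of all gene sums. The groups lay apart in 5 of the 18 (27.8%), against 32.9% of all gene sums. Among the 5 was Add1, which passed the filter through the MST1-deficient libraries alone. The median difference was -0.14 over the 18 and -0.06 over all gene sums. DESeq2 called 46 and limma 5 of all 3221 gene sums, and of the 18 genes they called 0 and 0.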

How the data were processed

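The authors deposited, per the file headers, estimated counts (expected counts) and FPKM for each unannotated transcript of each library. The submitters' processing notes name the genome build mm10. Aligner, assembler, estimator and annotation are not given in the sources used here. Transcripts absent from a library's list counted as 0 there. Gene sums add all listed transcripts of a gene.

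Rounded estimated counts were compared with edgeR 4.0.16 (quasi-likelihood test, TMM factors, R 4.3.3). Features needed 1 FPKM in at least 2 of 4 libraries, and p-values were adjusted by Benjamini-Hochberg over all 3221 gene sums or 4661 transcripts. On simulated data, where each known change was 4-fold or larger, the test recovered most of these among gene sums. It recovered none among transcripts at their fitted spread. With the spread set low it recovered nearly all of both. DESeq2 1.42.0, limma 3.58.1 on log2(FPKM + 0.5), other filters and each library left out were alternatives. P-values measure the spread between 2 pools per group, which may be technical. An exact permutation test of 2 against 2 cannot go below 0.33.

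Ctse, Cast and the gene lists were chosen with earlier results of these data known. Some genes of 2 lists are not reported here and were left out of the list counts. From each pathway list, the 3 tested genes of highest mean FPKM and any with an unadjusted p under 0.05 are named. The nearest genes on the chromosome and the 3 gene sums most like each member are named too, and a few genes with no listed transcript are named in addition. Symbols and positions came from RefSeq (GRCm38.p6), exons and sequences from GENCODE M21. Wilson intervals and floors cover counting error only, since PCR copies carried no molecular identifiers.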

Additional observations from a re-analysis of the deposited data

How the results depend on the processing

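The 0 edgeR calls among gene sums and transcripts were also 0 with RLE size factors, with no filter and with the replicate number as a block. With 1 library left out they were 0 to 0 in both, but there the other group alone gives the spread. These counts of 0 say nothing about stability, least of all for transcripts, where the test had too little power on simulated data. Replicates 1 and 2 share only a number across genotypes, and the deviations of same-numbered libraries correlated at 0.127 over gene sums and 0.126 over transcripts. DESeq2 called 46 gene sums and 103 transcripts, and limma on log2(FPKM + 0.5) called 5 and 5. The cause of these differences was not tested. The Ctse difference of 2.25 ranged from 2.04 to 2.47 with 1 library left out, was 2.32 on counts and 2.33 with median centring, and was 2.25 with the replicate block. The Cast difference was 0.02 with the block and 0.09 on counts. Without the 8363-base form, an alternative chosen after seeing the data, it was -0.35. That form was at 0 in wild type, so leaving it out could only lower the difference. The difference in share of the 8363-base form, MST1-deficient minus wild type, was 21.8 percentage points, 22.3 on counts and 24.2 among forms past the filter. It ranged from 9.16 to 34.5 points with 1 library left out. For the 8058-base form the difference in share was -1.5 points, with a spread of 0.48 points. Dropping wild-type replicate 1 gave -1.02 points, and dropping replicate 2 gave -1.98 points, so neither shift exceeded that spread. The form was at 0 in both MST1-deficient libraries, so its spread comes from the wild-type pair alone. Nothing is read from these shifts. With 2 pools per group, the spread of each form is itself poorly known.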

Other observations

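Cast had more unannotated transcripts than any other of the 5059 annotated genes listed, 13 against a median of 1, and 3341 genes (66.0%) had 1. The 12 Cast forms other than the 8363-base one summed to 37.8 and 28.4 FPKM in wild type versus 27.9 and 23.6 FPKM in MST1-deficient libraries. For this sum, chosen after the values were seen, both MST1-deficient libraries lay below both wild-type ones. The forms of 8094 and 8180 bases together made up 64.5% and 43.6% of the Cast sum in wild type versus 24.5% and 45.4% in MST1-deficient libraries.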
